A study of Rattus norvegicus with 6 samples.

Results

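The miR-9 family was represented by 4 of the 562 mature miRNAs measured in the rat hypothalamic arcuate nucleus (ARC), namely miR-9a-5p, miR-9a-3p, miR-9b-5p and miR-9b-3p. They were chosen by name, as every mature miRNA whose name starts with miR-9a- or miR-9b-, a rule that uses no measured value, although earlier results of these data were known when the family was chosen. Adult Sprague-Dawley rats of 8 to 10 weeks, males unless the study states otherwise, received either a chronic constriction injury of the left infraorbital nerve (CCI-ION), in which loose silk ligatures were tied around this trigeminal branch, or a sham operation that exposed the nerve and left it without ligatures. ARC RNA was taken on Day 14 after surgery and sequenced as small RNA in 3 sham and 3 CCI-ION libraries. The comparison asks which miRNAs of this hypothalamic region differ between injured and sham-operated rats. The study's legend for these miRNA levels gives 6 rats a group, and neither it nor the labels say how rats were assigned to the 3 libraries of a group, so each p-value measures the spread between these libraries, which may be technical.

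miR-9 is a highly conserved miRNA that is enriched in the brain, where neural progenitors and neurons use it to restrain genes such as the Notch effector Hes1 and the nuclear receptor Tlx. Both strands of its hairpin can be loaded into Argonaute. The 5p strand is known to target the mRNA of the transcriptional repressor REST and the 3p strand that of its cofactor CoREST. A miRNA recognises its targets mainly through its seed, bases 2 to 8 counted from the 5′ end, so the arms of a hairpin, whose seeds differ, have different targets.

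The mature sequences are shown because they tell apart the 4 measured names, which are similar enough to be confused. They are RefSeq entries of assembly GRCr8, written 5′ to 3′ with the seed in capitals.
rno-miR-9a-5p: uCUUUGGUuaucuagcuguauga
rno-miR-9a-3p: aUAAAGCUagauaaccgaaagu
rno-miR-9b-5p: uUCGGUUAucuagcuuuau
rno-miR-9b-3p: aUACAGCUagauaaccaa
The lengths are 23, 22, 19 and 18 bases, and the 4 seeds differ from each other. Of the 693 mature rat names in the same RefSeq table, 0 outside the family share a seed with any of them.

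miR-9a is encoded by 3 hairpins, Mir9-1 and Mir9-2 on chromosome 2 and Mir9-3 on chromosome 1. They are printed with both mature arms in capitals, 5p first, because their arms are identical and only the loops and flanks differ.
Mir9-1: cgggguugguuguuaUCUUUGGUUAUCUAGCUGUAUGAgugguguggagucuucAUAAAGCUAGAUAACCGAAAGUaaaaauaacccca
Mir9-2: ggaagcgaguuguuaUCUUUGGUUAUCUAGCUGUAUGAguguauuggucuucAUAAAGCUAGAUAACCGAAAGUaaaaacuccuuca
Mir9-3: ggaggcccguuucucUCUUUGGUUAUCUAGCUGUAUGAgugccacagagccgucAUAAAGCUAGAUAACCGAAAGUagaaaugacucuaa
Reads of miR-9a-5p or miR-9a-3p can therefore not be assigned to any of the 3 loci, and each value sums over them. In the same annotation Mir9-1 overlaps the lncRNA LOC100911992, Mir9-2 overlaps Mir9-2hg, which is listed as protein-coding, and Mir9-3 overlaps the lncRNA Mir9-3hg.

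The miR-9b arms come from the opposite strand of the same loci, from the hairpins Mir3597-1, Mir3597-2 and Mir3597-3. miR-9b-3p is the exact reverse complement of bases 4 to 21 of miR-9a-5p, and miR-9b-5p that of bases 1 to 19 of miR-9a-3p. The arms are also close on the same strand: without gaps, miR-9b-5p has 2 mismatches to bases 3 to 21 of miR-9a-5p, and miR-9b-3p has 2 mismatches to bases 1 to 18 of miR-9a-3p. How the counting treated strand and mismatches is not given in the sources used here, so reads of these partners cannot be told apart with certainty, and the miR-9b values are uncertain for this reason.

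**Figure D1:**
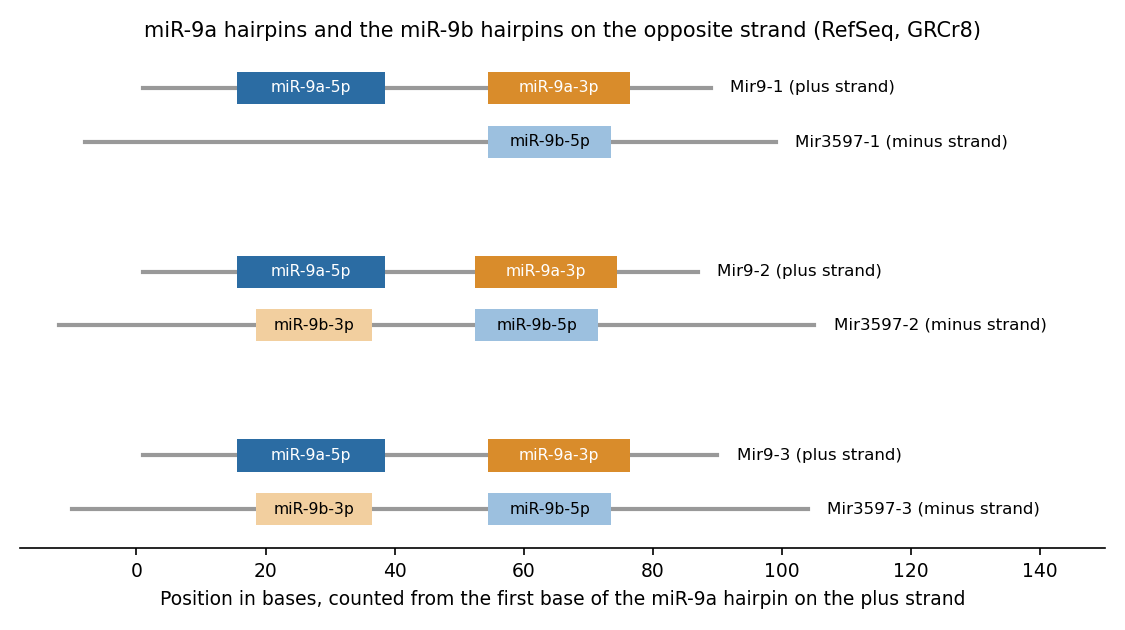
Map of the 3 miR-9 loci, with the position in bases from the first base of each miR-9a hairpin on the x axis, hairpins as grey lines and mature arms as boxes (5p blue, 3p orange, paler on the minus strand). The miR-9b arms on the minus strand lie across from the miR-9a arms, and miR-9b-3p is drawn at 2 of the 3 loci, where RefSeq lists it.

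The deposited values, called normalized counts, are the reads of a miRNA over its library's size factor. The listed reads summed to between 11115049 and 14313839 in the sham libraries and to between 8628309 and 11297551 in the CCI-ION libraries. No value stood for 1 to 4 reads, as the lowest above 0 equalled 5 reads, so a miRNA listed at 0 need not be absent. Changes were tested with limma on log2(normalized count + 1) over 555 miRNAs (mean of at least 1), two-sided, with Benjamini-Hochberg adjustment and an adjusted p under 0.05 as the threshold. With 3 libraries a group, an exact permutation test of a single value cannot give a two-sided p below 0.1. In the limma test 38 of the 555 miRNAs (6.85%) passed, 19 of them lower (3.42%) and 19 higher (3.42%) after CCI-ION. None of the 4 miR-9 members was among these 38. This split moves with the scaling, to 42 higher and 9 lower when libraries are scaled to their totals and to 9 higher and 108 lower with upper-quartile factors. By the unadjusted limma p, 1 of the 4 members, miR-9a-3p, was under 0.05, as were 183 of the 555 miRNAs (33.0%).

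miR-9a-5p was among the most abundant miRNAs of the ARC in every library. Its normalized count, given for the 3 libraries of a group in the order of their replicate numbers as in the following, was 1380708, 1452412 and 1343562 after sham surgery and 1423843, 1231204 and 1088338 after CCI-ION. The groups overlapped, since CCI-ION replicate 1 was above 2 of the sham libraries, while CCI-ION replicates 2 and 3 were below every sham library. The mean was 1392227 ± 55332 after sham surgery against 1247795 ± 168367 after CCI-ION (SD, n = 3 in each group). The log2 fold change was -0.17 (SE 0.14, 95% confidence interval -0.51 to 0.17, adjusted p = 0.423 by limma), and the exact permutation test gave p = 0.3. The interval leaves room for a fall by 0.51 and for a rise by 0.17 on the log2 scale. The sign itself depended on the scaling: it was 0.04 when each library was scaled to its total, and -0.50 with upper-quartile factors (adjusted p = 0.0822 by limma).

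Because a few miRNAs hold much of each library, the share of all listed reads is a different quantity from the normalized count. miR-9a-5p held 10.9%, 12.8% and 11.1% of the listed reads after sham surgery, from 1208101, 1746914 and 1594011 reads. It held 13.5%, 11.7% and 10.5% after CCI-ION, from 1530324, 1011127 and 1010985 reads. The lowest and the highest share were both found in CCI-ION libraries, and the sham values lay between them. Wilson 95% intervals were at most 0.0215 percentage points to either side, and they cover counting error only, so the spread between libraries was far wider than counting error. The mean share was 11.6% ± 1.07 after sham surgery against 11.9% ± 1.51 after CCI-ION (SD, n = 3 in each group), a difference of 0.324 percentage points (exact permutation p = 0.7, two-sided).

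miR-9a-5p was the second miRNA by abundance in each sham library, the first in CCI-ION replicates 1 and 2, and the second in CCI-ION replicate 3. The miRNA it changed places with was miR-7a-5p, a miRNA abundant in neuroendocrine cells of the hypothalamus. miR-7a-5p had normalized counts of 3105403, 1900553 and 2301274 in the sham libraries, all above every miR-9a-5p value there. In the CCI-ION libraries it had 1351902, 830002 and 1389119, a range that overlaps that of miR-9a-5p, so their order does not hold beyond the spread in CCI-ION rats. Below miR-9a-5p in sham rats stood miR-99a-5p at 716995 ± 18858 (SD, n = 3), well apart from it. Calculated over all listed reads except those of miR-7a-5p, the miR-9a-5p share was 14.4%, 15.4% and 13.8% in the sham libraries and 15.5%, 12.7% and 12.2% in the CCI-ION libraries, and the sign of the difference turned to -1.04 percentage points (exact permutation p = 0.5). Levels of different miRNAs also depend on how efficiently each sequence is captured in the library.

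**Figure D2:**
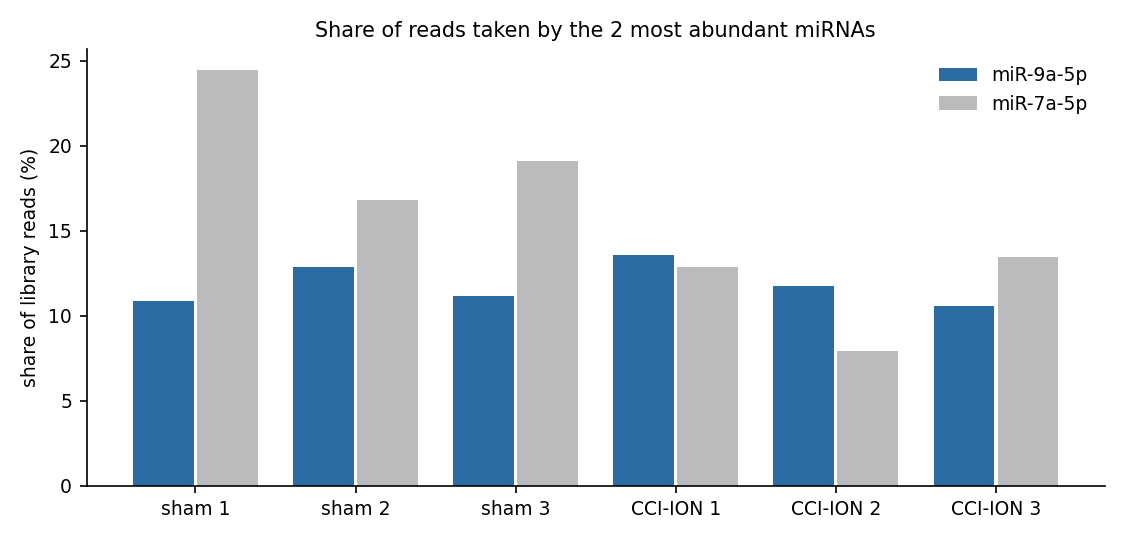
Share of listed reads, in percent, held by miR-9a-5p (blue bars) and miR-7a-5p (grey bars) in each of the 6 libraries. The miR-9a-5p bars run from 10.5% to 13.5% with no separation of the groups, and they are taller than the miR-7a-5p bars in CCI-ION replicates 1 and 2 and shorter in the other libraries. In CCI-ION replicate 2 miR-99a-5p, which is not drawn, stood above miR-7a-5p.

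The rarer arm of the same hairpins, miR-9a-3p, had normalized counts of 36846, 30057 and 31437 after sham surgery and of 24773, 9579 and 15081 after CCI-ION. Every CCI-ION library was below every sham library, with CCI-ION replicate 2 the lowest and CCI-ION replicate 1 nearest to the sham values. Groups that did not overlap were found for 226 of the 555 miRNAs tested (40.7%), and groups with every CCI-ION library lower for 118 (21.3%). The mean was 32780 ± 3589 after sham surgery against 16478 ± 7693 after CCI-ION (SD, n = 3 in each group), so the CCI-ION mean was 50.3% of the sham mean.

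The log2 fold change of miR-9a-3p was -1.09 (SE 0.36, 95% confidence interval -1.98 to -0.21). Its unadjusted p of 0.0238 from limma was under 0.05, as it was for 183 of the 555 miRNAs (33.0%), but the adjusted p of 0.107 missed the threshold. It passed without CCI-ION replicate 1, at -1.44 (adjusted p = 0.0495 by limma), and did not without CCI-ION replicate 2, at -0.76 (adjusted p = 0.129 by limma). By size the fall stood at place 41 of 555, counted from the most negative fold change. Its share of the listed reads was 0.290%, 0.266% and 0.261% in the sham libraries and 0.236%, 0.0912% and 0.146% in the CCI-ION libraries. The mean share was 0.272% ± 0.0158 against 0.158% ± 0.0729 (SD, n = 3), a difference of -0.114 percentage points (exact permutation p = 0.1, the smallest possible).

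The place of miR-9a-3p among all miRNAs was 38, 42 and 43 in the sham libraries and 49, 79 and 64 in the CCI-ION libraries. In the order of group means it stood in sham rats between miR-434-5p (38662 ± 4889) and let-7b-5p (32444 ± 3071), and in CCI-ION rats between miR-151-3p (16586 ± 2868) and miR-382-5p (16233 ± 2332). It overlapped with each of these neighbours, so its exact place is not fixed beyond the spread.

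**Figure D3:**
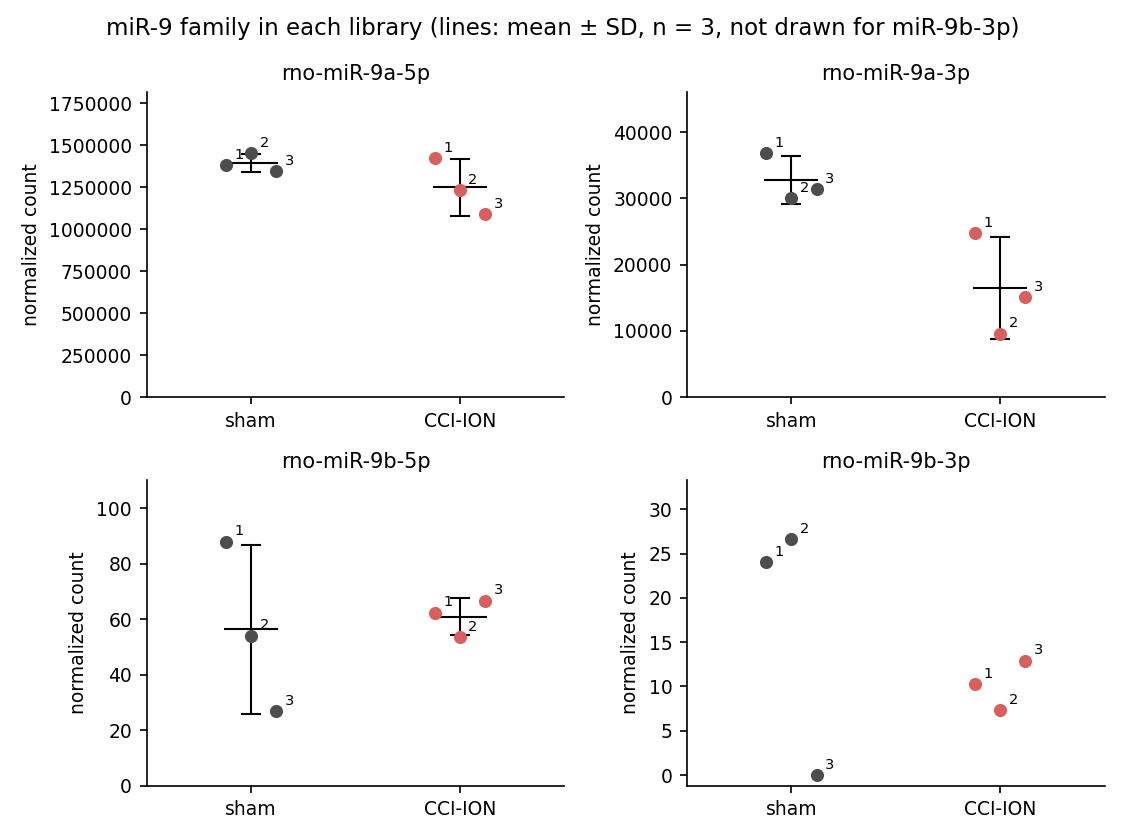
Normalized count of the 4 miR-9 members in each library, with numbered points for replicates and lines for the group mean ± SD (n = 3). Only miR-9a-3p has all CCI-ION points below all sham points; miR-9b-3p is listed at 0 in sham replicate 3, and no mean is drawn for it.

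The spread of miR-9a-3p within the CCI-ION group was wide for its abundance. On the log2 scale its SD was 0.69 in CCI-ION rats, against a median of 0.18 for the 61 miRNAs whose mean was within 3 times its own, and 0 of these had a larger SD. In sham rats its SD was 0.15 against a median of 0.10, and 17 of the 61 had a larger one. Counting error alone would give a coefficient of variation of at most 1.13% for miR-9a-3p, while the coefficient between CCI-ION libraries was 46.7%. For miR-9a-5p the SD was 0.057 in sham and 0.19 in CCI-ION rats.

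Both arms are cut from the same precursor. Their ratio within a library, like that of any other miRNAs, does not depend on the scaling between libraries. There were 37.5, 48.3 and 42.7 reads of miR-9a-5p per read of miR-9a-3p after sham surgery, and 57.5, 129 and 72.2 after CCI-ION. Each CCI-ION ratio was above each sham ratio, and CCI-ION replicate 2 stood far above the others. The mean ratio was 42.8 ± 5.43 in sham and 86.1 ± 37.5 in CCI-ION rats (SD, n = 3). Put as a share of the reads of both arms, the 3p arm made up 2.60%, 2.03% and 2.29% in the sham libraries and 1.71%, 0.772% and 1.37% in the CCI-ION libraries.

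On the log2 scale the 5p to 3p ratio differed by 0.93 between CCI-ION and sham rats (SE 0.31, 95% confidence interval 0.16 to 1.70). It was tested with limma beside the ratios of 158 hairpins whose arms each had a mean of at least 10, and the adjusted p of 0.0893 missed the threshold (unadjusted p = 0.0253, exact permutation p = 0.1). Of the 158 hairpins, 30 passed (19.0%), 60 had an unadjusted p under 0.05 (38.0%) and 70 had groups that did not overlap (44.3%). The miR-9a difference was the 14th from the highest of the 158, whose median was -0.04. Among the 81 hairpins whose 5p arm is the more abundant it was the 10th, with a median of 0.05. Among the 44 whose 5p arm exceeded the 3p arm at least 8 times, a group formed after the values were seen, it was the 4th, with a median of 0.07. Leaving out single libraries gave differences between 0.60, without CCI-ION replicate 2, and 1.18, with adjusted p between 0.0612 and 0.236 by limma.

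**Figure D4:**
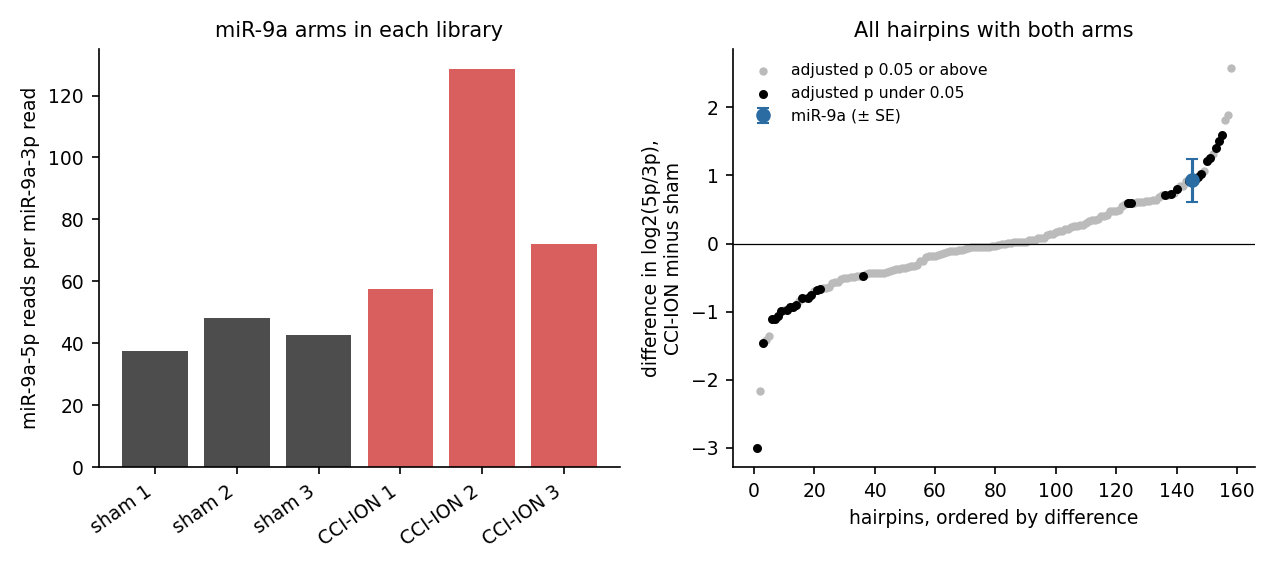
Left, miR-9a-5p reads per miR-9a-3p read in each library, as bars; right, the difference in log2(5p/3p) between CCI-ION and sham rats for 158 hairpins in order of size, with black points for an adjusted limma p under 0.05 and miR-9a in blue with its SE. The CCI-ION bars, from 57.5 to 129, are all above the sham bars, from 37.5 to 48.3, and miR-9a stands 14th from the top.

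The miR-9b arms were far less abundant. miR-9b-5p had normalized counts of 88.0, 54.0 and 27.0 after sham surgery and of 62.3, 53.6 and 66.7 after CCI-ION, from between 32 and 77 reads. The sham libraries spanned all CCI-ION values, with sham replicate 1 the highest and sham replicate 3 the lowest of the 6. The means were 56.3 ± 30.6 and 60.9 ± 6.70 (SD, n = 3), and the log2 fold change was 0.26 (SE 0.43, 95% confidence interval -0.81 to 1.32, adjusted p = 0.692 by limma). Its sign turned to -0.18 without sham replicate 3 and to -0.07 with upper-quartile factors. In the order of means it stood at place 395 in both groups.

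miR-9b-3p had normalized counts of 24.0 and 26.6 in sham replicates 1 and 2 and was listed at 0 in sham replicate 3. It had 10.2, 7.31 and 12.9 in the CCI-ION libraries, from 11, 6 and 12 reads. Both sham libraries with a value were above all CCI-ION libraries, and the sham library at 0 was below them, so the groups overlapped. The fitted log2 fold change of 0.30 (SE 1.34, 95% confidence interval -3.04 to 3.65, adjusted p = 0.895 by limma) takes the 0 at face value and is positive, although the mean of the CCI-ION libraries is 60.2% of the sham mean. Without sham replicate 3 the value was -1.27 (adjusted p = 0.112 by limma). No direction can be given for miR-9b-3p at this depth.

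Since each miR-9b arm is complementary to a stretch of one miR-9a arm and similar to the other, the miR-9b reads were also set against those of miR-9a-5p. There were 63.7, 37.2 and 20.1 miR-9b-5p reads per 1000000 miR-9a-5p reads after sham surgery, and 43.8, 43.5 and 61.3 after CCI-ION. On the same scale miR-9b-3p had 17.4 and 18.3 in the sham libraries that list it, against 7.19, 5.93 and 11.9 after CCI-ION. Set against miR-9a-3p, of which it is the reverse complement, miR-9b-5p had 2388, 1798 and 858 reads per 1000000 miR-9a-3p reads after sham surgery and 2516, 5593 and 4426 after CCI-ION. These groups did not overlap, with sham replicate 1 close to CCI-ION replicate 1. The miR-9a-3p reads in the denominator also had groups that did not overlap, as had the counts of 40.7% of all 555 miRNAs. How many other miRNAs separate when set against miR-9a-3p was not counted, so the separation is not read as a result about miR-9b-5p. miR-9b-3p had 651 and 885 reads per 1000000 miR-9a-3p reads in the sham libraries that list it and 413, 763 and 857 after CCI-ION, with overlap. Relative to miR-9a-5p, the miR-9b-5p proportion thus changed by over 3 times between sham libraries, while the miR-9a-5p share moved between 10.9% and 12.8% in the same libraries. Over the 6 libraries the Pearson correlation of log2 values was 0.89 between both miR-9b arms and 0.71 between both miR-9a arms, and it lay between -0.09 and 0.08 for the pairs of a miR-9a with a miR-9b arm. These are descriptions over 6 libraries that share 2 conditions and differ in depth.

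Within each library miR-9a-5p was compared with 3 other abundant miRNAs or families of the brain. miR-124-3p, the main miRNA of differentiated neurons, had normalized counts of 58265, 71266 and 71422 in the sham and 43263, 36815 and 36746 in the CCI-ION libraries. The log2 ratio of miR-9a-5p to miR-124-3p was 4.57, 4.35 and 4.23 in sham and 5.04, 5.06 and 4.89 in CCI-ION rats. All CCI-ION libraries were above all sham libraries, and the mean linear ratio was 21.0 in sham and 32.0 in CCI-ION rats. The difference was 0.61 on the log2 scale (exact permutation p = 0.1, the smallest possible, and 0.15 adjusted over the 3 ratios). It is the fold change of miR-9a-5p, -0.17, less that of miR-124-3p, -0.78, so that most of it comes from the denominator. Of the ratios of all 554 other miRNAs to miR-124-3p, 356 (64.3%) had every CCI-ION library above every sham library, and their median difference was 0.77, above that of miR-9a-5p. Fitted with limma beside these ratios, as an alternative, the 95% confidence interval for miR-9a-5p was 0.23 to 1.00 and its adjusted p 0.0206, and 306 of the 554 (55.2%) passed as higher, so passing is not particular to miR-9a-5p.

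The log2 ratio of miR-9a-5p to miR-7a-5p was -1.17, -0.39 and -0.78 in the sham and 0.07, 0.57 and -0.35 in the CCI-ION libraries. Its groups did not overlap either, although CCI-ION replicate 3 came within a small distance of sham replicate 2. The difference was 0.88 (exact permutation p = 0.1, adjusted 0.15; limma 95% confidence interval -0.03 to 1.78, adjusted p = 0.0982). Over the ratios of 554 miRNAs to miR-7a-5p, which itself differed by -1.04, the median was 1.03, 64.3% had groups that did not overlap with CCI-ION higher, and 40.4% passed as higher by limma. The log2 ratio to the sum of 8 let-7 5p miRNAs, a family that promotes differentiation, was -0.50, -0.25 and -0.53 in the sham and -0.08, -0.27 and -0.32 in the CCI-ION libraries. These groups overlapped, and the difference was 0.20 (exact permutation p = 0.3; limma 95% confidence interval -0.15 to 0.55, adjusted p = 0.322). Over all 555 miRNAs the median difference to the let-7 sum was 0.35, 44.7% had CCI-ION libraries all higher, and 20.7% passed as higher by limma. In each of the 3 families of ratios miR-9a-5p stood at place 344 from the highest, below the median.

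The other miRNAs known for neurons were described as a list of 19, chosen for their known role, of which 2 passed the test, both lower in CCI-ION rats, where 6.85% of all 555 miRNAs passed and 3.42% passed as lower. miR-124-3p fell from 66984 ± 7552 to 38941 ± 3743 (log2 fold change -0.78, SE 0.14, adjusted p = 0.0435 by limma). miR-218a-5p, known from motor neurons, fell from 123862 ± 5166 to 65077 ± 6057 (-0.93, SE 0.12, adjusted p = 0.0190 by limma). miR-124-3p passed under 3 of 5 scalings, the one used here included, and in 1 of 6 fits that left out a library, while miR-218a-5p passed under 5 of 5 and in 2 of 6. The list's count fell to 0 without any 1 of the sham libraries or without CCI-ION replicate 3, and was 1 without CCI-ION replicate 2. The log2 fold changes were -1.26 for miR-137-3p, -1.04 for miR-7a-5p and -0.91 for miR-128-3p, none of which passed (adjusted p = 0.226, 0.0828 and 0.0597 by limma). Of the 19, 8 had fold changes above 0 and 11 below 0, 9 had groups that did not overlap (40.7% of all 555 miRNAs did not), and the median was -0.16 against -0.01 over all 555 miRNAs. With the neuronal fold changes spread from -1.26 to 0.45, the miR-9a-5p value of -0.17 lay near their median and the miR-9a-3p value of -1.09 near their lower end.

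**Figure D5:**
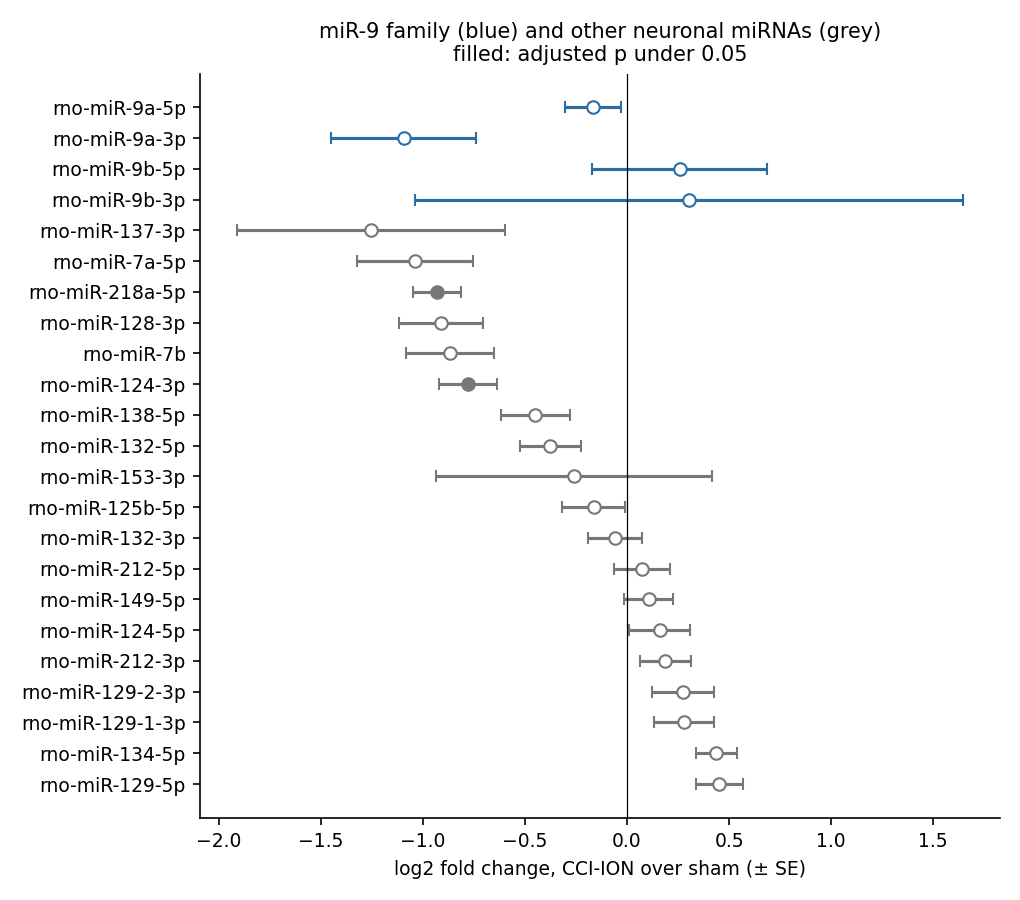
Log2 fold change between CCI-ION and sham rats from limma, with its SE, for the 4 miR-9 members (blue) and the 19 miRNAs of the neuronal list (grey), with filled points for an adjusted p under 0.05. The miR-9a-5p point at -0.17 lies close to the list's median of -0.16, and the filled points are miR-124-3p and miR-218a-5p.

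miRNAs typical of other cells of the dissected tissue were measured in the same libraries, because in bulk RNA fewer cells of a type and less RNA per cell cannot be told apart. The summed normalized count of 4 vascular smooth muscle miRNAs ranged from 35489 to 51879 in sham and from 82454 to 97636 in CCI-ION libraries, and 2 of them, miR-143-3p and miR-145-5p, passed as higher, against 3.42% of all miRNAs. The sum of 2 endothelial miRNAs ranged from 45442 to 54854 and from 63095 to 70810, with 0 of 2 passing. This sum is nearly all miR-126a-3p, with a log2 fold change of 0.44, while the other arm, miR-126a-5p, had -0.91. The sum of 4 oligodendrocyte miRNAs ranged from 13685 to 19928 in sham and from 10471 to 11303 in CCI-ION libraries. Of these, 1 passed as lower, miR-338-3p, against 3.42% of all miRNAs. Another, miR-219a-5p, was listed at 0 in all 3 CCI-ION libraries and in 1 sham library. Its sham mean of 6.60 ± 6.02 (SD, n = 3) is near the lowest listed value of 5 reads, so these zeros need not mean absence. Its log2 fold change of -2.28 (SE 0.98, adjusted p = 0.169 by limma) did not pass. Sums overlapped between groups for miRNAs of erythrocytes (2837 to 3798 and 2898 to 3660), immune cells and microglia (9555 to 11394 and 8675 to 10415), choroid plexus and ependyma (68230 to 92624 and 87342 to 111586), endocrine epithelium (10541 to 15566 and 13061 to 30452) and skeletal muscle (98.3 to 158 and 102 to 124), with 0 of 3, 7, 8, 6 and 4 miRNAs passing. All 6 endocrine epithelium miRNAs had fold changes above 0, with a median of 0.72 on the log2 scale. Of these, 2 had an unadjusted limma p under 0.05, against 33.0% of all 555 miRNAs. The immune sum is mostly miR-146a-5p (means 7220 and 7017), and of its 7 miRNAs 4 had fold changes above 0 and 3 below 0. Within it the mean of miR-223-3p was 45.6 after sham surgery against 87.7 after CCI-ION (0.95 on the log2 scale, adjusted p = 0.0597 by limma). The erythrocyte sum is nearly all miR-486 (-0.08 on the log2 scale), and within it the mean of miR-451-5p was 204 after sham surgery against 419 after CCI-ION (1.07 on the log2 scale, adjusted p = 0.0649 by limma). Near the lowest listed value of 5 reads, miR-144-5p had means of 5.78 ± 5.72 and 2.44 ± 4.22 (SD, n = 3). Its log2 fold change of -1.12 (SE 1.27, adjusted p = 0.556 by limma) gives no direction. The sum of 3 neuronal markers, miR-124-3p, miR-128-3p and miR-138-5p, ranged from 448234 to 685009 in sham and from 259668 to 318797 in CCI-ION libraries. Of these markers 1 passed, miR-124-3p, as given for the longer neuronal list that holds them. Their sum is mostly miR-128-3p (means 491235 and 258095), which did not pass (adjusted p = 0.0597 by limma). All 3 had fold changes below 0, while the longer list of 19 had 8 above 0 and 11 below 0. No marker tested was at 0 in every library. The part of these cell types in the miR-9 values was not tested.

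The miRNAs whose pattern over the 6 libraries was most like that of a miR-9 arm were found by the Pearson correlation of log2 values among miRNAs with a mean of at least 100. For miR-9a-5p these were miR-7a-1-3p (0.96), miR-186-5p (0.94), miR-34b-3p (0.93), miR-3099 (0.90) and miR-137-5p (0.90). For miR-9a-3p they were miR-376b-5p (0.996), miR-132-5p (0.99), miR-181d-5p (0.98), miR-384-5p (0.98) and miR-421-3p (0.97). None of the 5 nearest to one arm was among the 5 nearest to the other. For miR-9b-5p the first was miR-324-5p (0.86) and for miR-9b-3p miR-6324 (0.82), and miR-431, miR-324-5p and miR-374-5p were among the 5 nearest to both miR-9b arms. The values describe 6 libraries that fall into 2 groups and differ in depth, and each arm was compared with at least 363 miRNAs.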

How the data were processed

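Small RNA of 3 sham and 3 CCI-ION libraries was analysed, grouped by the sample labels. The values the authors deposited are a signal, 1 for each mature miRNA in each library. Every value was a whole multiple of a step of its library, within 0.001 reads, or within a tolerance that grew with the count for abundant miRNAs. The library's median-of-ratios size factor over the 485 miRNAs above 0 in all 6 libraries was 1 divided by the step. Reads were recovered by multiplication. The submitters' processing notes name Bowtie 1.1.1, cutadapt 1.14 and the rn6 build without their roles. Annotation, counting and normalization are not given in the sources used here. Replicates differed by far more than sampling noise (chi-square per degree of freedom 142 to 563), so none was a repeated sequencing of the same library. This cannot tell whether separate libraries were made from the same RNA.

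limma 3.58.1 (R 4.3.3) was run without covariates on log2(normalized count + 1) with a minimum mean of 1, which left 555 of 562 miRNAs, and on log2((5p + 1)/(3p + 1)) for hairpins. On this scale, fold changes of low miRNAs are understated. It was first tested on simulated data. Shares and ratios used exact permutation tests (SciPy 1.17.1). Sequences came from RefSeq tables of GRCr8, in which 512 of the 562 names were matched; as this is not the build of the files, no genome coordinates are given. miRNAs were named by rule: the members, the 3 comparators, direct neighbours in abundance, the 5 most alike, neuronal miRNAs past the threshold or with the 4 largest changes, and cell type miRNAs past the threshold. Other miRNAs were named after their values were seen. The members and lists were chosen with earlier results of these data known. Alternatives were other scalings, filters, a pseudocount of 0.1, an intensity trend, the replicate block and leaving out each library.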

Additional observations from a re-analysis of the deposited data

How the results depend on the processing

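None of the 4 miR-9 members passed with the scaling and filter used for the report. The miR-9a-5p fold change was 0.036 with total-count scaling and 0.041 with library totals without miR-9a-5p, against -0.17, and it did not pass under any of 16 alternatives (adjusted p from 0.0822 to 0.870 by limma). The miR-9a-3p fold change stayed negative in all 16 and passed in 4 of them: -1.42 with upper-quartile scaling (adjusted p = 0.0400), -1.09 with a mean of at least 100 (adjusted p = 0.0398), -1.09 with an intensity trend (adjusted p = 0.0468), and without CCI-ION replicate 1, all by limma. Leaving out single libraries gave -1.44 to -0.76 for miR-9a-3p, -0.27 to -0.07 for miR-9a-5p, -0.18 to 0.65 for miR-9b-5p and -1.27 to 1.13 for miR-9b-3p. miR-9b-5p was -0.066 with upper-quartile scaling. Scalings moved the median fold change of all miRNAs between -0.340 and 0.171; relative to that median, miR-9a-3p lay between -1.08 and -1.06. The miR-9a-5p share differed by -1.04 percentage points over all miRNAs except miR-7a-5p, by -2.75 without the 10 most abundant, and by between -0.48 (without CCI-ION replicate 1) and 1.02 (without CCI-ION replicate 3) when single libraries were left out, with -0.048 without sham replicate 1.

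Over all miRNAs, 38 passed in the report, 117 with upper-quartile scaling, 63 with a mean of at least 10, 101 with a mean of at least 100, 88 with an intensity trend and, without single libraries, 9, 11 and 7 (sham replicates 1, 2 and 3) and 35, 43 and 11 (CCI-ION replicates 1, 2 and 3). Of those 38, 19 were higher, against 82.4% of 51 with total-count scaling, 7.69% of 117 with upper-quartile scaling, 61.2% of 49 with library totals without miR-7a-5p and 81.5% of 54 without miR-9a-5p. Of the neuronal list, 2 passed in the report, 7 with upper-quartile scaling, a mean of at least 100 or an intensity trend, 5 with a mean of at least 10, 4 with library totals without miR-7a-5p, and between 0 and 2 without single libraries. The miR-9a-5p to miR-124-3p ratio of 0.61 passed by limma (adjusted p = 0.0206), as 55.2% of all miRNA ratios to miR-124-3p did, and could not by the exact test. The miR-9a arm ratio did not pass under any of its 10 other limma fits, while the number of hairpins that passed, 30, was 1 to 40 without single libraries, lowest without sham replicate 3. The causes of these shifts were not tested.

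Deviations from the group means correlated at -0.03, 0.19 and -0.01 between same-numbered replicates, which gives no pairing of the libraries. With the replicate block, 3 miRNAs passed and 0 of the neuronal list, miR-9a-5p was -0.17 (adjusted p = 0.471), miR-9a-3p -1.09 (adjusted p = 0.143) and the arm ratio difference 0.93 (adjusted p = 0.0630), all by limma. The planned edgeR and DESeq2 alternatives were not run, although whole reads were recovered from the deposited values. Depth limits the miR-9b arms, with at most 77 reads a library.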
